A study of Mus musculus with 12 samples.

Results

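Genes of drug-metabolising enzymes were followed in mucosal scrapings of the mouse ileum. Members were chosen from the deposited TPM values (a transcript level scaled for transcript length and library total) by gene name and level. A member is a protein-coding gene of the P450 families Cyp1 to Cyp3, the carboxylesterases (Ces), the glutathione S-transferases (Gsta, Gstm, Gstt, Gstp, Gsto and Mgst), the UDP-glucuronosyltransferases (Ugt1a and Ugt2b) or the sulfotransferases (Sult) that reached 1 TPM in at least 6 of 12 libraries. This gave 59 members out of 142 protein-coding genes with such names and 55891 genes in all.

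Each library came from 1 mouse at baseline, with 6 mice labelled ERBB3-dIE and 6 labelled Erbb3-FF. The product of Erbb3 is an ErbB receptor, and the study asks how it bears on the small intestinal barrier. The labels give litter as well: ERBB3-dIE mice 1 to 3 and Erbb3-FF mice 1 and 2 were of litter B, and ERBB3-dIE mice 4 to 6 and Erbb3-FF mice 3 to 6 of litter A. Age, sex, allele and any Cre driver are not stated in those labels. A scraping holds epithelium with some connective tissue and immune cells, so fewer cells of a type and less RNA per cell cannot be told apart.

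Foreign compounds and many of the body's own lipids are cleared in steps. In phase I, P450 enzymes oxidise a compound and carboxylesterases cleave its esters. In phase II, transferases add glutathione, glucuronic acid or sulfonate, and transporters export the product. Enterocytes of the small intestine carry these enzymes and meet swallowed compounds before the liver does.

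Read depth per library is unknown, since TPM does not keep it. Between 12344 and 13364 genes reached 1 TPM per library. Erbb3 lay at 104 to 206 TPM in ERBB3-dIE libraries and at 87.3 to 151 TPM in Erbb3-FF libraries, so its gene-level value showed no loss that would check the labels. Summed markers of villus enterocytes, the absorptive cells of the villus, were between 46867 and 78286 TPM in the 5 litter B libraries and in Erbb3-FF mouse 3. They were between 13470 and 25754 TPM in the other 6 libraries, all of litter A, so Erbb3-FF mouse 3 stood apart from the rest of its labelled litter. Summed B cell markers were at 353, 157 and 132 TPM in mice 1, 2 and 3 of the Erbb3-FF genotype, and elsewhere at most 21.1 TPM. Smooth muscle markers were highest in ERBB3-dIE mice 4 and 5, at 180 and 162 TPM. Pancreatic acinar markers summed to at most 0.139 TPM. Of the TPM in Erbb3-FF mice 5 and 6, ribosomal sequence took 10.2% and 10.8%.

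By enzyme class, 15 members were P450 genes out of 62 listed, 10 were carboxylesterases out of 19, 21 were glutathione S-transferases out of 24, 8 were UDP-glucuronosyltransferases out of 16 and 5 were sulfotransferases out of 21. Of the members, 52 reached 1 TPM in all 12 libraries and 7 in 6 to 11 libraries. Of the 83 other genes, 16 reached it in 1 to 5 libraries, 67 in none, and 39 were listed at 0 in every library. Just inside the limit were Cyp2r1, Cyp2w1 and Ugt1a8, whose sixth-highest values were 1.01, 1.04 and 1.61 TPM. Just outside were Cyp2d10, Cyp2d40 and Cyp2c66, at 0.967, 0.912 and 0.896 TPM. No Cyp1 gene passed. Cyp1a1, the classical target of the aryl hydrocarbon receptor and named here after its values were seen, was at most 0.477 TPM in ERBB3-dIE mice, and at 1.00 and 2.14 TPM in the first pair of Erbb3-FF mice, the others reaching 0.445 TPM or less.

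Together the members took 0.486% of the TPM. Their sum was 4688 ± 688 TPM in ERBB3-dIE mice and 5038 ± 1126 TPM in Erbb3-FF mice (SD, n = 6 each, here and below). The means over all mice were at or above 100 TPM for 14 members, from 10 to under 100 for 27 and from 1 to under 10 for 18. The most abundant were Mgst1 (615 TPM), Ces2e (449 TPM), Gstp1 (383 TPM) and Gsto1 (323 TPM), and the top 10 members held 64.5% of the members' sum. The membrane-bound and soluble glutathione S-transferases therefore led the levels, at 2287 ± 322 TPM in ERBB3-dIE mice and 2349 ± 407 TPM in Erbb3-FF mice.

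Between genotypes, 5 members fell in ERBB3-dIE mice: the alpha-class glutathione S-transferases Gsta1, Gsta5 and Gsta4, the sterol sulfotransferase Sult2b1 and the carboxylesterase Ces2e. The test was limma on log2(TPM + 0.5) with litter and genotype as terms, with p-values adjusted over all 12605 genes tested and a threshold of 0.05. Among all genes tested, 3.7% were lower and 1.66% higher. No member was higher in this limma test, against 2 at an unadjusted p under 0.05 and 1 (Ces1e) in the authors' deposited table, where 5.07% of genes with an adjusted p were higher. At that unadjusted threshold 11 members differed, 9 of them lower, where 21.8% of all genes did. The TPM ranges of the genotypes did not overlap for 2 members, both lower, as for 2.44% of all genes (1.02% higher and 1.43% lower). The median log2 difference was −0.16 over the members, of which 39 were negative and 20 positive, and −0.00066 over all genes. That median moved with the libraries: it lay between −0.23 (without Erbb3-FF mouse 6) and −0.039 (without Erbb3-FF mouse 2) when 1 mouse was left out, and was also nearer 0 without ERBB3-dIE mouse 1 (−0.068) or Erbb3-FF mouse 1 (−0.078) or 3 (−0.097). It was above 0 in litter A alone (0.017), with B cell markers as a covariate (0.049) and without the 3 Erbb3-FF libraries rich in B cell genes (0.091). The median over all genes was also above 0 in these fits, at 0.077, 0.048 and 0.066 in that order. The last of these fits keeps no Erbb3-FF mouse of litter B, so it compares the genotypes within litter A only. In litter B alone the median was −0.33 over the members and −0.10 over all genes. A member that reached 1 TPM mainly in Erbb3-FF mice passed the filter through them, so these counts describe the members only.

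The 5 calls depended on particular libraries, as did the calls over all genes, of which 467 were lower in the fit of all mice. Without Erbb3-FF mice 1 to 3, the libraries rich in B cell genes, no member was called and 21 genes in all were lower. That fit keeps no Erbb3-FF mouse of litter B, so with litter as a term it compares the genotypes within litter A only. It therefore cannot tell B cell content from the loss of the litter B comparison. The members' log2 differences there were −1.32 for Gsta1, −1.51 for Gsta5, −0.90 for Gsta4, −1.10 for Sult2b1 and −0.68 for Ces2e. A B cell marker score as a covariate left no member and 38 lower genes, and a villus marker score no member and 7 lower genes. Of the 23 genes in the villus score, 11 were themselves called lower in the fit of all mice. In litter A (7 mice) or litter B (5 mice) fitted alone no member was called, and 2 and 9 genes in all were lower. Without ERBB3-dIE mice 4 and 5, those rich in smooth muscle genes, 2 members (Gsta4 and Gsta5) were called, beside 65 lower genes in all. With a smooth muscle marker score as a covariate and all mice kept, the same 5 members were called, beside 587 lower genes in all. All 5 differences stayed negative in each of these fits, from −2.53 to −1.16 for Gsta1, −2.47 to −1.38 for Gsta5, −1.52 to −0.84 for Gsta4, −1.26 to −0.28 for Sult2b1 and −0.89 to −0.15 for Ces2e. Leaving out 1 mouse at a time gave 3 to 6 members; the lowest count came without Erbb3-FF mouse 1 or mouse 2, and without Erbb3-FF mouse 3 the same 5 members were called.

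**Figure D1:**
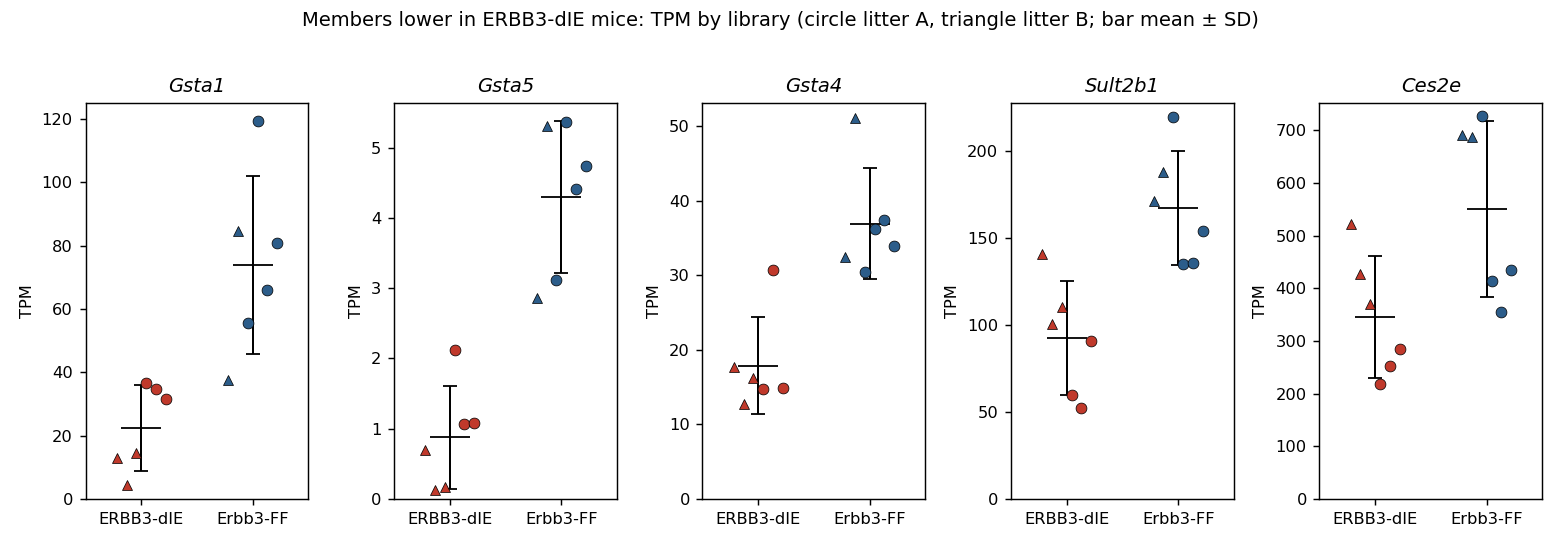
TPM of the 5 members that were lower in ERBB3-dIE mice, 1 point per mouse (circles litter A, triangles litter B), with the mean and SD as bars, ERBB3-dIE at left and Erbb3-FF at right in each panel. For Gsta1 and Gsta5 no ERBB3-dIE mouse reached the lowest Erbb3-FF mouse, while the other 3 genes overlapped.

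Alpha-class glutathione S-transferases are soluble enzymes that detoxify electrophiles and lipid peroxides. Gsta1 (ENSMUSG00000074183) measured 13.0, 4.39, 14.4, 36.7, 34.7 and 31.6 TPM in ERBB3-dIE mice 1 to 6, against 37.6, 84.7, 55.5, 119, 66.0 and 80.9 TPM in Erbb3-FF mice 1 to 6. Every ERBB3-dIE value lay below every Erbb3-FF value, although ERBB3-dIE mouse 4 and Erbb3-FF mouse 1 were close. The means were 22.5 ± 13.5 and 74.0 ± 28.1 TPM, a log2 difference of −1.72 (SE 0.36, 95% interval −2.51 to −0.93, limma adjusted p = 0.0218). Within litter B the means were 10.6 ± 5.42 TPM (n = 3) in ERBB3-dIE and 61.1 ± 33.3 TPM (n = 2) in Erbb3-FF mice. Within litter A they were 34.3 ± 2.54 TPM (n = 3) in ERBB3-dIE and 80.4 ± 28.0 TPM (n = 4) in Erbb3-FF mice. The ERBB3-dIE mice of litter B were thus the lowest of all.

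Gsta5 (ENSMUSG00000074179), its neighbour, followed at a much lower level. It measured 0.691, 0.131, 0.173, 2.11, 1.07 and 1.07 TPM in ERBB3-dIE mice 1 to 6, against 2.86, 5.31, 3.11, 5.36, 4.41 and 4.74 TPM in Erbb3-FF mice 1 to 6. Again the genotypes did not overlap. The log2 difference of −1.83 (SE 0.28, limma adjusted p = 0.00658) was the largest fall among the members. The gene reached 1 TPM in 9 libraries, those of all Erbb3-FF mice and of the ERBB3-dIE mice of litter A. The Erbb3-FF libraries alone were enough for it to pass the filter, so its difference is given as a description.

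Both genes share sequence with relatives, which matters for 75-base reads. Of the 75-base windows of Gsta1 transcripts in the GENCODE M21 annotation, 84.7% also occur in another gene, mostly in the predicted gene Gm3776 (69.3%). For Gsta5 the share was 37.3%. Gm3776, which is no member and was looked at after its values were seen, lies between Gsta1 and Gsta5 in the RefSeq gene order. It averaged 0.874 ± 0.486 TPM in ERBB3-dIE mice and 7.67 ± 3.56 TPM in Erbb3-FF mice (log2 difference −2.47, limma adjusted p = 0.00364). Gm3776 reached 1 TPM in 8 libraries, those of all Erbb3-FF mice and of ERBB3-dIE mice 1 and 6. It thus passed the filter mainly through Erbb3-FF mice, and its difference is given as a description. The single values of these genes are uncertain to the extent that the authors' estimation splits reads between them. The sum of Gsta1, Gm3776 and Gsta5 was 24.2 ± 14.2 TPM in ERBB3-dIE mice and 86.0 ± 31.2 TPM in Erbb3-FF mice.

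The start regions of Gsta1 and Gsta5 are near copies as well, and are printed because the genes fell together. Each runs from 250 bases before to 50 bases after the gene's start, from RefSeq on GRCm38.p6, a build other than the GRCm39 that the submitters' processing notes name. Gsta1 is at chr9:78230419-78230718 and Gsta5 at chr9:78289678-78289977, both on the plus strand. Of 285 aligned bases 279 were identical (97.9%). Capitals mark GCGTG, the core of the element bound by the aryl hydrocarbon receptor.
Gsta1: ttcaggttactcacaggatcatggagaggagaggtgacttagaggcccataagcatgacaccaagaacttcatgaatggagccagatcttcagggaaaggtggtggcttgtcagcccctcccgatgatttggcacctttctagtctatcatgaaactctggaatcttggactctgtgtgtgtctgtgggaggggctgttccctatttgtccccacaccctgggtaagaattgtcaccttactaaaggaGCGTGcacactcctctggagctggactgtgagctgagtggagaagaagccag
Gsta5: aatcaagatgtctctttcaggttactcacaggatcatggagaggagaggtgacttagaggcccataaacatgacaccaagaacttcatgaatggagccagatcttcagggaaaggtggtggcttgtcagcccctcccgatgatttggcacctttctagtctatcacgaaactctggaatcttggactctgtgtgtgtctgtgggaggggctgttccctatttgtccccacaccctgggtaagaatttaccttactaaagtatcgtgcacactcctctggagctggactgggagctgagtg

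GCGTG, searched on both strands, stands in the Gsta1 region and not in that of Gsta5. It was found in 32.4% of 32851 mouse promoters of this length, and in 15 of the 61 promoters that the table holds for 51 members. The antioxidant response core TGACNNNGC was in neither region, in 12.4% of all promoters and in 6 of the members' 61. These are matches of letters and show no binding.

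Gsta4 (ENSMUSG00000032348) encodes the alpha-class enzyme with a preference for hydroxyalkenals, toxic products of lipid peroxidation. Its values were 17.7, 12.8, 16.3, 14.7, 30.8 and 14.9 TPM in ERBB3-dIE mice 1 to 6, against 32.5, 51.1, 30.5, 36.3, 37.4 and 33.9 TPM in Erbb3-FF mice 1 to 6. ERBB3-dIE mouse 5 alone entered the Erbb3-FF range, just above Erbb3-FF mouse 3. This gave a log2 difference of −1.06 (SE 0.20, limma adjusted p = 0.0155). Unlike Gsta1, this gene shares no 75-base window with another gene. Litter means were close, at 15.6 TPM in litter B and 20.1 TPM in litter A for ERBB3-dIE mice, and at 41.8 TPM in litter B and 34.5 TPM in litter A for Erbb3-FF mice.

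The fourth alpha-class member, Gsta3, gave no call: it averaged 6.04 ± 3.46 TPM in ERBB3-dIE mice and 5.95 ± 3.27 TPM in Erbb3-FF mice (log2 difference 0.18, 95% interval −0.61 to 0.97). Summed over the class, the level was 47.2 ± 20.9 TPM in ERBB3-dIE mice and 121 ± 34.1 TPM in Erbb3-FF mice, a mean of 39.0% of that in Erbb3-FF mice.

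Sult2b1 (ENSMUSG00000003271) encodes a sulfotransferase for cholesterol and related sterols. It had 141, 100.4, 111, 60.0, 52.2 and 91.0 TPM in ERBB3-dIE mice 1 to 6, against 172, 188, 219.6, 135, 136 and 154 TPM in Erbb3-FF mice 1 to 6. Only ERBB3-dIE mouse 1 overlapped the Erbb3-FF range. The means were 92.5 ± 33.0 and 167 ± 32.8 TPM (log2 difference −1.00, SE 0.19, limma adjusted p = 0.0140). The means within litter B were 117 TPM in ERBB3-dIE and 179.8 TPM in Erbb3-FF mice, and within litter A 67.7 TPM in ERBB3-dIE and 161 TPM in Erbb3-FF mice.

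Ces2e (ENSMUSG00000031886), the most abundant carboxylesterase, took 50.5% of the summed TPM of its class. Its level was 523, 427, 371, 217, 253 and 284 TPM in ERBB3-dIE mice 1 to 6, against 690.3, 688, 727, 414, 355 and 434 TPM in Erbb3-FF mice 1 to 6. The genotypes overlapped across litters but in neither litter alone. With 3 against 2 mice in litter B and 3 against 4 in litter A, such separation is easily met. The share of all genes with it was not counted. The means were 346 ± 116 and 551 ± 167 TPM (log2 difference −0.80, SE 0.17, limma adjusted p = 0.0220). Ces2e also differed between litters, which is described below.

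In an exact 2-sided permutation test of genotype within litters, with 350 relabellings, Gsta1, Gsta5 and Sult2b1 each gave p = 0.00286, the smallest value this design allows, and Gsta4 and Ces2e gave p = 0.00571. These permutation p-values were not adjusted. They rest on the same mice and the same difference by which the 5 were called, so they add no separate support. Members that were not called also had small permutation p-values: 0.00857 for Ugt2b35 and 0.02 for Ces1e (both higher), 0.0114 for Cyp3a13 and 0.0143 for Cyp2d22 (both lower). In the authors' deposited table all 5 were lower as well, with log2 fold changes of −1.92 for Gsta1, −2.48 for Gsta5, −1.04 for Gsta4, −0.89 for Sult2b1 and −0.66 for Ces2e. The authors' deposited table also has Cyp2d22 and Cyp3a13 as lower, which makes 7 members, beside 7.51% of all genes with an adjusted p there; it rests on the same mice.

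**Figure D2:**
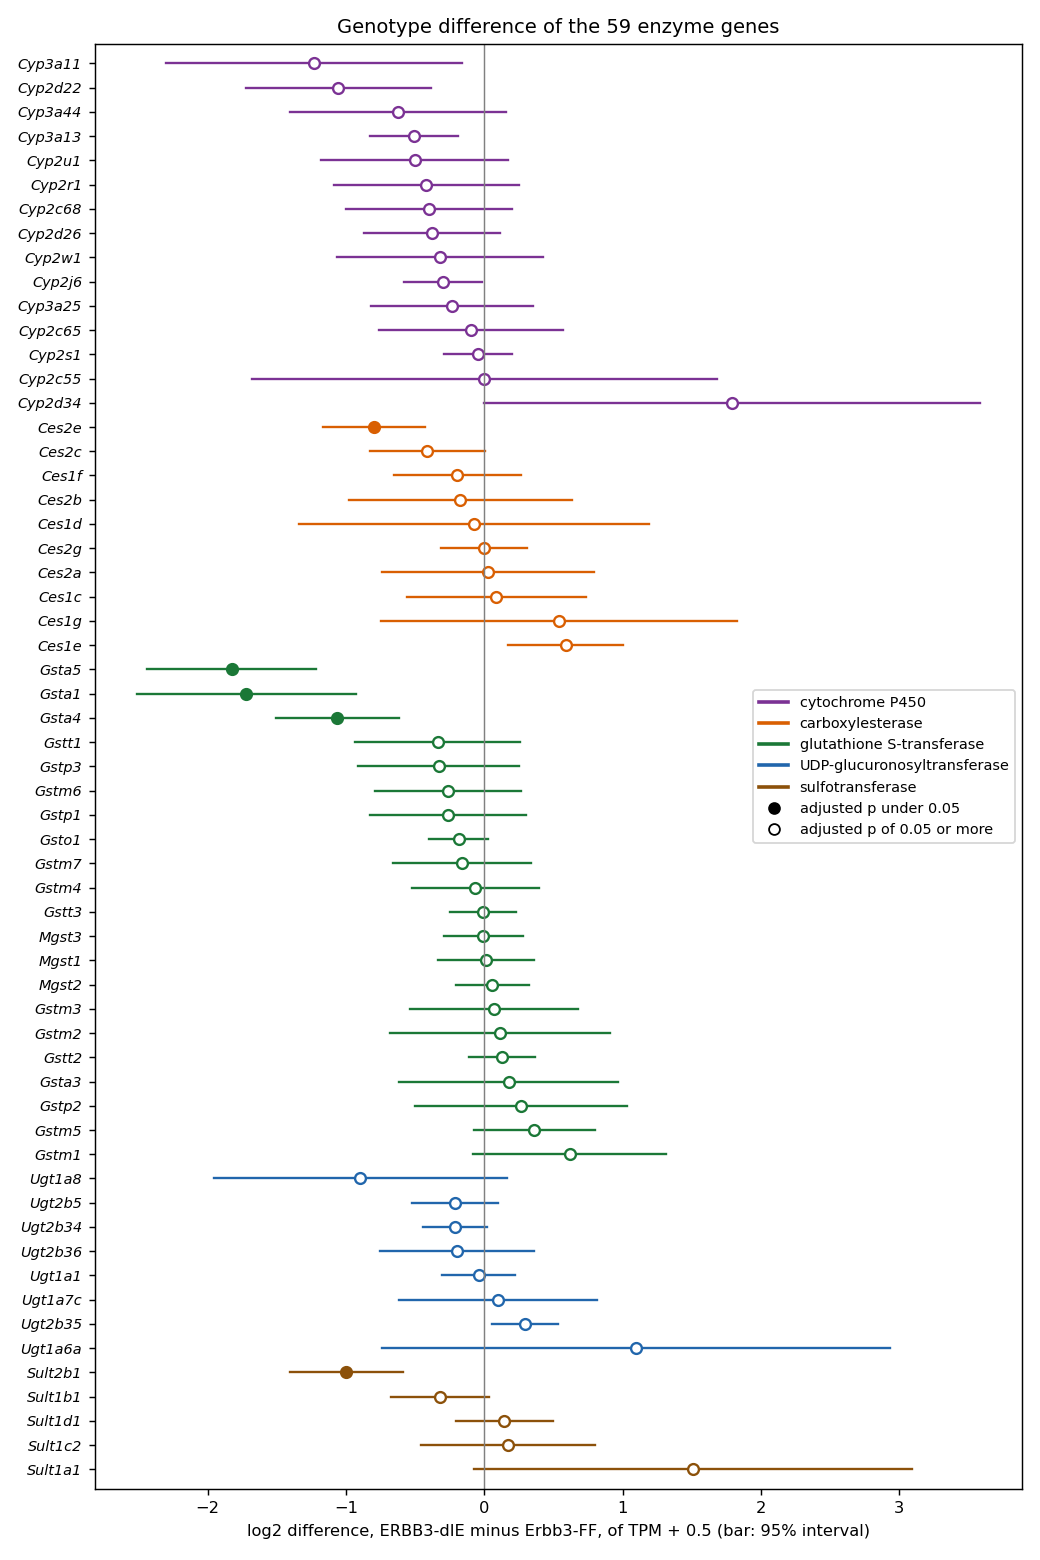
Log2 difference of TPM + 0.5, ERBB3-dIE minus Erbb3-FF, for each of the 59 members with its 95% interval, grouped by enzyme class. Filled circles mark the 5 members with a limma adjusted p under 0.05, all of them to the left of 0.

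Among the 15 P450 genes none passed the limma test in either direction. At an unadjusted p under 0.05 there were 4, all lower, where 21.8% of all genes differed in either direction. The authors' deposited table has Cyp2d22 and Cyp3a13 as lower. Differences were negative for 14 of the 15, and for 6311 of all 12605 genes. Some were near 0 or changed sign with the fit: Cyp2c55 had −0.0015, and −2.00 to 1.40 over the alternatives. The exception was Cyp2d34, at 8.95 ± 10.5 TPM in ERBB3-dIE and 1.69 ± 2.07 TPM in Erbb3-FF mice (log2 difference 1.79, limma adjusted p = 0.230). The summed P450 level was 726 ± 292 TPM in ERBB3-dIE mice and 722 ± 282 TPM in Erbb3-FF mice. Nearest to a call was Cyp3a13, with 74.0 ± 23.8 TPM in ERBB3-dIE mice and 97.0 ± 35.7 TPM in Erbb3-FF mice (log2 difference −0.51, SE 0.14, limma adjusted p = 0.0641). Cyp2d22 averaged 6.66 ± 2.82 TPM in ERBB3-dIE mice and 13.3 ± 6.31 TPM in Erbb3-FF mice (log2 difference −1.06, SE 0.31, limma adjusted p = 0.0690). Within each litter both genes had the lower mean in ERBB3-dIE mice.

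Cyp3a11, the mouse P450 usually compared with the main drug-oxidising enzyme of human gut and liver, had the largest negative P450 difference, −1.23 (95% interval −2.30 to −0.16, limma adjusted p = 0.170). Its level was 45.1 ± 50.1 TPM in ERBB3-dIE mice and 62.0 ± 57.1 TPM in Erbb3-FF mice, and most of that spread lay between litters. Cyp2s1, an epithelial P450, averaged 36.4 ± 6.41 TPM in ERBB3-dIE mice and 36.1 ± 5.96 TPM in Erbb3-FF mice, with a 95% interval of the log2 difference from −0.29 to 0.20.

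The other carboxylesterases gave no call. Ces1e averaged 7.17 ± 2.32 TPM in ERBB3-dIE mice and 4.78 ± 1.18 TPM in Erbb3-FF mice (log2 difference 0.59, SE 0.19, limma adjusted p = 0.0945). It passed under median-of-ratios scaling, under quantile normalisation and in the authors' deposited table. Ces2c and Ces2a, which like Ces2e belong to the esterase group of the intestine, were at 153 ± 39.9 and 178 ± 85.7 TPM in ERBB3-dIE mice, against 195 ± 58.3 and 165 ± 93.6 TPM in Erbb3-FF mice. The summed carboxylesterase level was 772 ± 218 TPM in ERBB3-dIE mice and 1004 ± 321 TPM in Erbb3-FF mice.

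Several abundant glutathione S-transferases had narrow intervals that held 0, and none of them was called. Mgst1, a membrane-bound enzyme with peroxidase activity, averaged 635 ± 164 TPM in ERBB3-dIE mice and 595 ± 163 TPM in Erbb3-FF mice (95% interval of the log2 difference −0.34 to 0.36). Its relatives Mgst2 and Mgst3 had intervals of −0.20 to 0.32 and −0.29 to 0.28. Gsto1, an omega-class thiol transferase, was at 307 ± 40.4 TPM in ERBB3-dIE mice and 338 ± 57.0 TPM in Erbb3-FF mice. In the theta class, Gstt2 averaged 43.3 ± 6.80 TPM in ERBB3-dIE mice and 38.8 ± 4.01 TPM in Erbb3-FF mice, and Gstt1 had a log2 difference of −0.34 (95% interval −0.93 to 0.26).

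The pi-class pair Gstp1 and Gstp2 varied in opposite directions in single mice. Gstp2 measured 326, 362, 366, 267, 217 and 313 TPM in ERBB3-dIE mice 1 to 6, against 393, 453, 146, 289, 63.8 and 297 TPM in Erbb3-FF mice 1 to 6. In the 2 Erbb3-FF mice with the lowest Gstp2, mice 3 and 5, Gstp1 was at 712 and 481 TPM, the highest of the Erbb3-FF mice. The sum of the pair was 658 ± 129 TPM in ERBB3-dIE mice and 690 ± 144 TPM in Erbb3-FF mice. Shared 75-base windows made up 29.2% of Gstp1 and 50.1% of Gstp2, so the division of reads between them is uncertain. Gstp3, which shares no window, averaged 9.61 ± 3.17 TPM in ERBB3-dIE mice and 12.2 ± 3.29 TPM in Erbb3-FF mice (log2 difference −0.33, 95% interval −0.91 to 0.25).

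**Figure D3:**
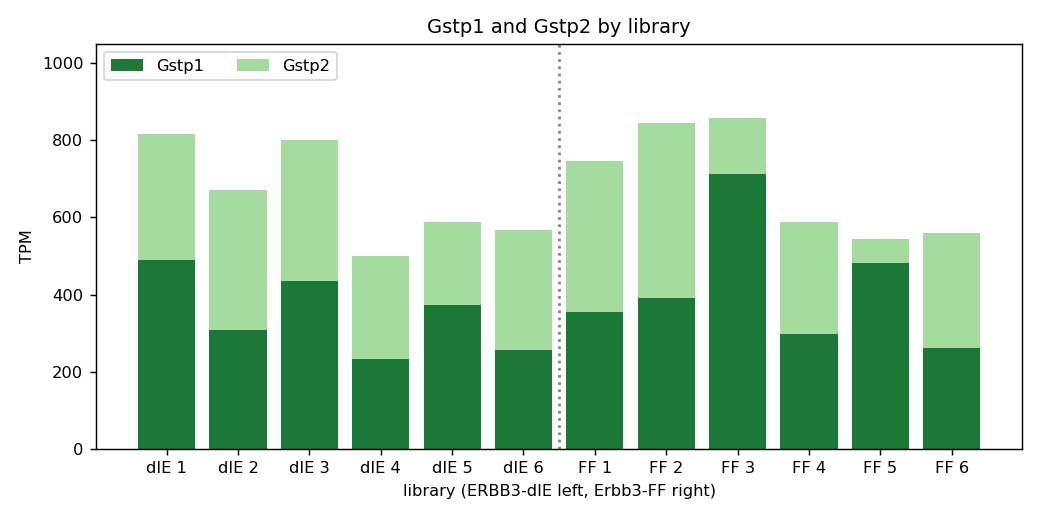
TPM of Gstp1 (dark) and Gstp2 (light) stacked by library, ERBB3-dIE mice at left and Erbb3-FF mice at right. Gstp2 made up little of the bar in Erbb3-FF mice 3 and 5, while the height of the whole bar stayed between 500.4 and 858 TPM.

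None of the 7 mu-class genes was called by limma or in the authors' deposited table, and none had an unadjusted p under 0.05. Gstm1, the most abundant, measured 20.0, 14.5, 30.1, 57.3, 64.5 and 46.0 TPM in ERBB3-dIE mice 1 to 6, against 29.8, 17.9, 13.1, 36.9, 28.5 and 25.9 TPM in Erbb3-FF mice 1 to 6. The 3 highest values were those of ERBB3-dIE mice of litter A (log2 difference 0.62, 95% interval −0.08 to 1.32, limma adjusted p = 0.292). Summed over the class, ERBB3-dIE and Erbb3-FF mice had 58.1 and 75.3 TPM in litter B, and 137 and 81.7 TPM in litter A.

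UDP-glucuronosyltransferases gave no call, with 1 of 8 (Ugt2b35) at an unadjusted p under 0.05 and none in the authors' deposited table. Ugt2b34 led them at 201 ± 32.1 TPM in ERBB3-dIE mice and 225 ± 41.9 TPM in Erbb3-FF mice (95% interval of the log2 difference −0.44 to 0.02). Ugt1a1, which conjugates bilirubin, was at 75.3 ± 8.50 TPM in ERBB3-dIE mice and 77.0 ± 11.7 TPM in Erbb3-FF mice (95% interval −0.30 to 0.22). Ugt2b35 averaged 11.1 ± 1.70 TPM in ERBB3-dIE mice and 9.22 ± 1.27 TPM in Erbb3-FF mice (log2 difference 0.30, SE 0.11, limma adjusted p = 0.142). The Ugt1a members share their downstream exons, and between 51.2% and 58.7% of the windows of each occur elsewhere. Ugt1a8, the lowest, was listed at 0 in ERBB3-dIE mice 2 and 4 and reached 2.98 TPM in mouse 5, against 0.754 to 3.39 TPM in Erbb3-FF mice. The sum of the 4 was 126 ± 48.2 TPM in ERBB3-dIE mice and 114 ± 18.7 TPM in Erbb3-FF mice.

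Apart from Sult2b1, no sulfotransferase was called. Sult1b1 was at 192 ± 61.4 TPM in ERBB3-dIE mice and 222 ± 53.5 TPM in Erbb3-FF mice, and Sult1d1 at 202 ± 37.1 TPM in ERBB3-dIE mice and 178 ± 48.3 TPM in Erbb3-FF mice. Sult1a1, which conjugates phenols, had a log2 difference of 1.51 with a 95% interval from −0.07 to 3.09, and its values, given below, were widely spread.

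The spread between mice was wide for many members. The median ratio of the highest to the lowest library was 4.15 over the members and 2.21 over all genes tested, and the median coefficient of variation was 36.5% in ERBB3-dIE mice and 30.3% in Erbb3-FF mice, against 22.2% and 21.3% over all genes. ERBB3-dIE mouse 5 held the highest value of 15 of the 59 members (25.4%), where it held that of 5.83% of all genes. Cyp2c55, a P450 that hydroxylates arachidonic acid, reached 844 TPM there and lay between 37.5 and 369.8 TPM in the other ERBB3-dIE mice and between 41.2 and 340.2 TPM in Erbb3-FF mice. Sult1a1 reached 162 TPM in that mouse, with 10.8 to 52.2 TPM in the other ERBB3-dIE mice and 2.75 to 35.5 TPM in Erbb3-FF mice. Ugt1a6a, a transferase for small phenols, was at 52.0 TPM there and at 33.0 TPM in ERBB3-dIE mouse 4, against at most 14.4 TPM in Erbb3-FF mice. The same 2 mice had the most smooth muscle marker RNA. Its part in the high values of these single mice was not tested. For the genotype difference, a fit with a smooth muscle marker score as a covariate is given above.

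**Figure D4:**
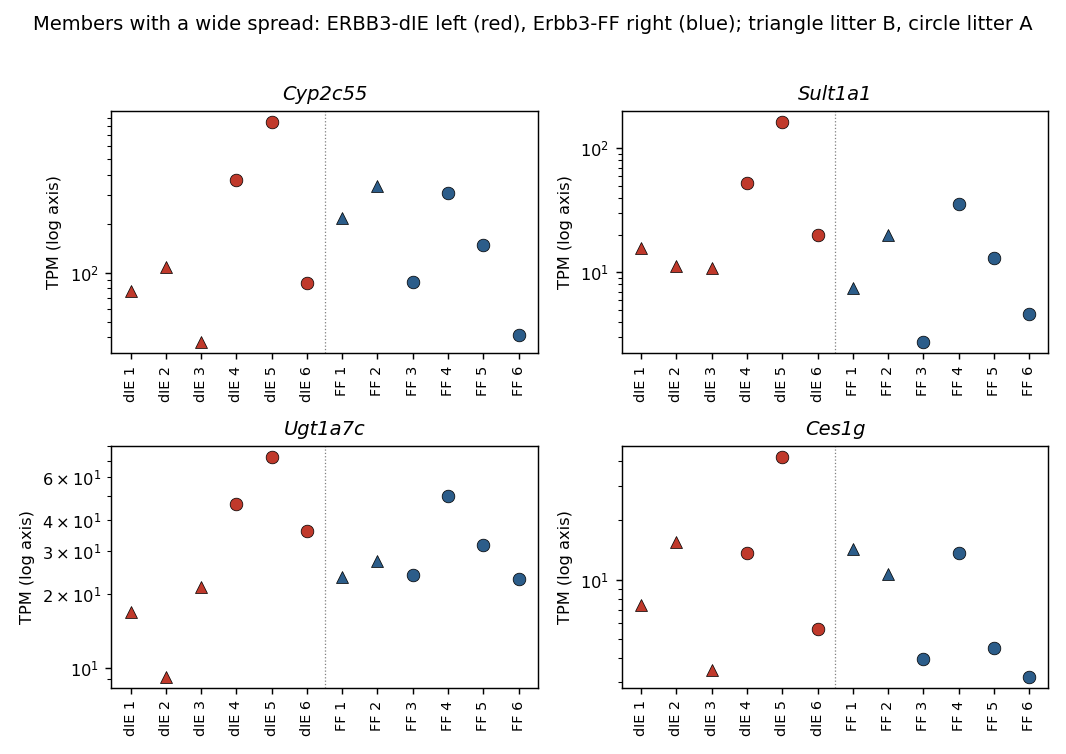
TPM on a log axis of Cyp2c55, Sult1a1, Ugt1a7c and Ces1g in each mouse, ERBB3-dIE at left (red) and Erbb3-FF at right (blue), triangles for litter B and circles for litter A. ERBB3-dIE mouse 5 is the highest point in each panel, at 844, 162, 72.5 and 42.2 TPM.

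Between litters, 10 members were higher in litter B and none lower, where 7.16% of all genes were higher and 1.4% lower in the same fit. The 10 were all 4 Cyp3a members, the P450 genes Cyp2u1, Cyp2c68 and Cyp2d26, the carboxylesterases Ces1c and Ces2e, and the theta-class transferase Gstt1. By litter, Cyp3a11 was at 104, 113 and 31.8 TPM in ERBB3-dIE and 146 and 107 TPM in Erbb3-FF mice of litter B. In litter A it measured 5.17, 10.2 and 6.22 TPM in ERBB3-dIE mice 4 to 6 and at 77.1, 10.5, 18.5 and 12.7 TPM in Erbb3-FF mice 3 to 6. Litter B exceeded litter A apart from Erbb3-FF mouse 3, which lay within the litter B range (log2 difference, litter B minus litter A, 2.94, SE 0.50, limma adjusted p = 0.0154).

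Cyp2u1, a fatty acid hydroxylase, was between 8.52 and 12.6 TPM in litter B, and between 1.33 and 7.51 TPM in litter A, where 7.51 TPM was again Erbb3-FF mouse 3 (log2 difference 1.92, limma adjusted p = 0.0153). The other log2 litter differences were 1.63 for Cyp3a44, 1.43 for Cyp2c68, 1.29 for Ces1c, 1.20 for Cyp2d26, 1.17 for Gstt1, 1.13 for Cyp3a25, 0.83 for Cyp3a13 and 0.69 for Ces2e, with limma adjusted p-values from 0.0172 to 0.0346. In 8 of the 10, Erbb3-FF mouse 3 lay above the other 6 litter A mice, as it did in 78.9% of the 902 genes higher in litter B. Without that mouse 26 members were called between litters, as were 24.3% of all genes. Without ERBB3-dIE mouse 1 or mouse 4 the members called were Cyp2u1 and Cyp3a11, beside 0.801% and 0.873% of all genes. The villus marker sum split the libraries in the same way, and its part in the litter differences was not tested. The villus marker score, a mean of log2 values, did not split them fully. Erbb3-FF mouse 6 of litter A was at 7.90, above ERBB3-dIE mouse 3 of litter B at 7.74.

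**Figure D5:**
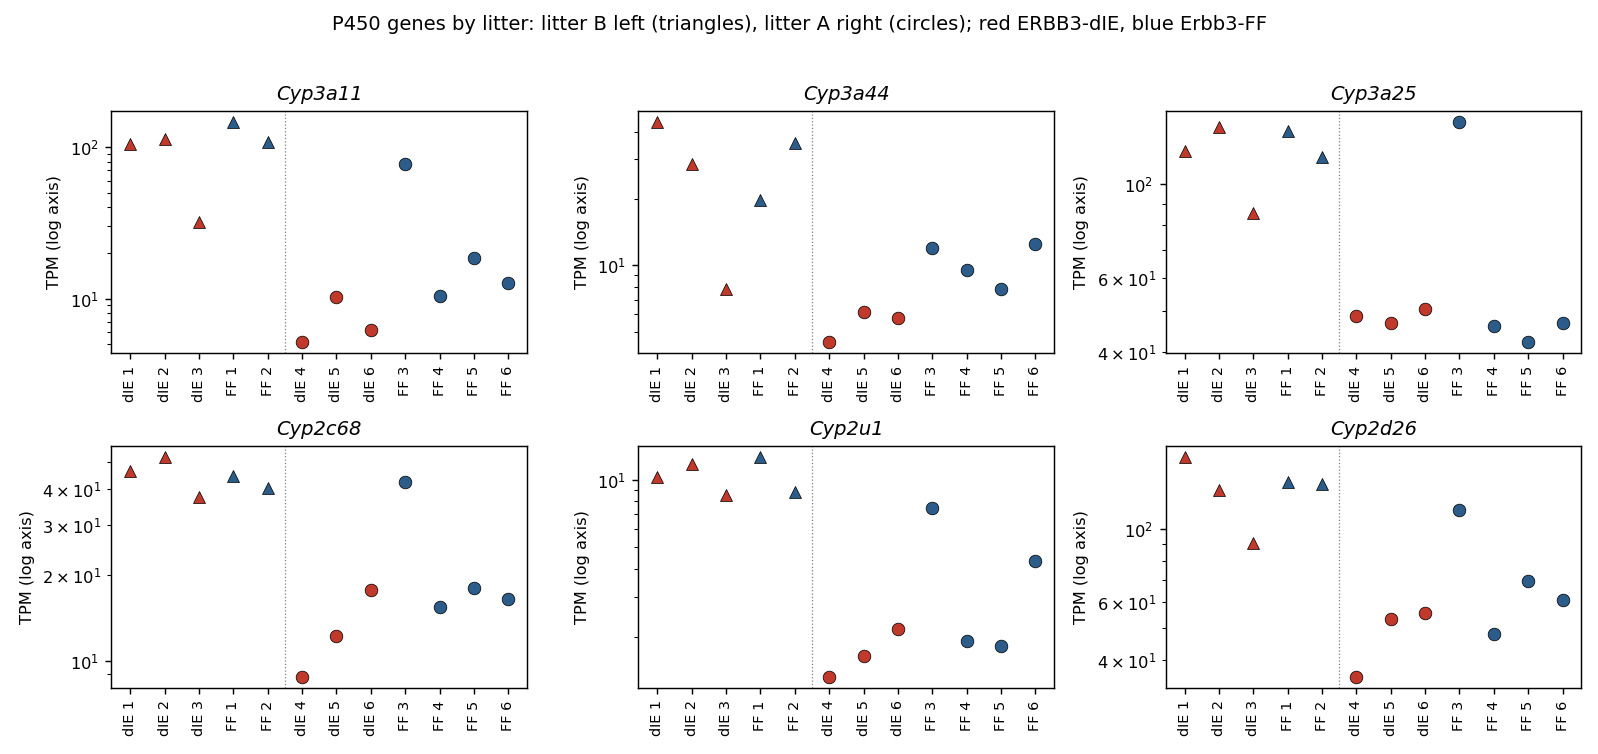
TPM on a log axis of 6 P450 genes, with litter B mice at left (triangles) and litter A mice at right (circles), red for ERBB3-dIE and blue for Erbb3-FF. In Cyp3a11, Cyp3a25 and Cyp2c68 the first litter A mouse of genotype Erbb3-FF, mouse 3, is level with litter B, while the other 6 litter A mice are lower.

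Both Cyp3a11 and Cyp2c68 carry the letters CAAAGTCCA, a motif of the hepatocyte and enterocyte factor HNF4A, within their start regions on GRCm38.p6. The motif, searched on both strands, stands in 0.475% of all promoters of this length and in 4 of the members' 61. The stretches of 60 bases around it are printed in the direction of transcription, with the motif in capitals. Cyp3a11 is at chr5:145879929-145879988 and Cyp2c68 at chr19:39741144-39741203, both on the minus strand, Cyp2c65 at chr19:39060865-39060924 on the plus strand and Sult1b1 at chr5:87536173-87536232 on the minus strand.
Cyp3a11: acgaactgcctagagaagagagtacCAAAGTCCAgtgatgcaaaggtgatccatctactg
Cyp2c68: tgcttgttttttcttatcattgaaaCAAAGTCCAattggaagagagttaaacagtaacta
Cyp2c65: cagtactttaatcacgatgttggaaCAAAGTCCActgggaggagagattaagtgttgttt
Sult1b1: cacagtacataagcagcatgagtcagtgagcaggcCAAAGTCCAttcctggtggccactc

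Of these 4 genes Cyp3a11 and Cyp2c68 were called between litters, while Cyp2c65 had a log2 litter difference of −0.16 (limma adjusted p = 0.755) and Sult1b1 one of 0.55 (limma adjusted p = 0.0601). Counted from 0 at the first of the 50 bases from the gene's start on, the motif begins at −109 in Cyp3a11, −77 in Cyp2c68, −116 in Cyp2c65 and 25 in Sult1b1. Its absence from the other windows says only that these letters are not there.

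Whether the genotype difference itself differed between litters was tested by an interaction term. No gene of any kind passed in limma after adjustment, and 11 of the 59 members had an unadjusted p under 0.05, where 9.31% of all genes had. The smallest p among members was that of Ces1f (0.00881, adjusted 0.347): ERBB3-dIE and Erbb3-FF mice had means of 44.2 and 76.8 TPM in litter B, and of 65.3 and 57.0 TPM in litter A. The estimate was negative, meaning a lower ERBB3-dIE value relative to Erbb3-FF in litter B than in litter A, for 38 of the 59 members and for 8360 of the 12605 genes tested.

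Genes around the enzymes were counted by the same test. Of 14 tested drug transporters 5 were lower in ERBB3-dIE mice and none higher, beside 3.7% and 1.66% of all genes. Differences were negative for 11 of the 14 and positive for 3. The largest positive one was that of Abcc3 (0.74, limma adjusted p = 0.0635), which the authors' deposited table has as higher. Abcb1a, the P-glycoprotein that pumps drugs back into the lumen, averaged 110.1 ± 20.7 TPM in ERBB3-dIE mice and 216 ± 63.8 TPM in Erbb3-FF mice (log2 difference −1.00, limma adjusted p = 0.0104), without overlap. Abcg2, an exporter of sulfated and other conjugates and the most abundant of them to be lower, was at 264 ± 81.9 TPM in ERBB3-dIE mice and 437 ± 105 TPM in Erbb3-FF mice (−0.83). The other lower transporters were the cation exporter Slc47a1 (−1.54), the peptide carrier Slc15a1 (−1.22), which is also on the villus marker list, and Abcc5 (−1.04). The TPM ranges did not overlap for 2 of the 14, Abcb1a and Abcc5, as for 2.44% of all genes. These calls are from the fit of all mice. Over all genes, 7 were lower with the villus marker score as a covariate and 21 without Erbb3-FF mice 1 to 3. Transporters were not counted in those fits.

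Of 21 tested transcription factors of the xenobiotic response, 1 was lower, Hnf4g (79.7 ± 21.3 TPM in ERBB3-dIE mice and 109 ± 10.9 TPM in Erbb3-FF mice, log2 difference −0.58, limma adjusted p = 0.0247), and 19 had negative differences. Hnf4a, the most abundant, was at 261 ± 26.5 TPM in ERBB3-dIE mice and 293 ± 27.5 TPM in Erbb3-FF mice (−0.17, limma adjusted p = 0.326). Some known genes were picked from these lists after their values were seen: Nr1i2, Nfe2l2, Nqo1, Por and Gclc. Nr1i2, the pregnane X receptor, was at 41.0 ± 11.1 TPM in ERBB3-dIE mice and 46.0 ± 8.56 TPM in Erbb3-FF mice and gave no call (−0.27, limma adjusted p = 0.201). Nfe2l2, which encodes NRF2, was at 60.8 ± 5.14 TPM in ERBB3-dIE mice and 62.5 ± 6.50 TPM in Erbb3-FF mice. Among 14 NRF2 targets outside the families 1 was lower (Srxn1, −0.59), and Nqo1, a quinone reductase, had a difference of 0.08. Fth1, a ferritin subunit and the most abundant of them, had one of 0.02.

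None of 18 genes for cofactor supply was called by limma, with 6 at an unadjusted p under 0.05, 5 of them lower. Gclm, the most abundant, averaged 248 ± 39.7 TPM in ERBB3-dIE mice and 292 ± 44.6 TPM in Erbb3-FF mice (−0.26). Por, the reductase that feeds electrons to P450 enzymes, was at 26.0 ± 5.73 TPM in ERBB3-dIE mice and 35.6 ± 11.6 TPM in Erbb3-FF mice (−0.45, limma adjusted p = 0.252). Gclc, of glutathione synthesis, was at 19.7 ± 2.17 TPM in ERBB3-dIE mice and 27.6 ± 5.88 TPM in Erbb3-FF mice (−0.49, limma adjusted p = 0.0518). Of 4 tested AHR targets 1 was lower (Fam102a, −0.57), and of 40 other phase I and II genes 1 (Aldh9a1, −0.57), while Akr1a1, the most abundant of these, had a difference of 0.04.

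Cell type markers moved with genotype in the same fit. Of 23 villus enterocyte markers 11 were lower and all 23 had negative differences (median −0.84), among them Nt5e (−2.70), Ada (−2.39) and Alpi (−1.91). The lists were chosen with earlier results of these data known, and Nt5e, Ada and Alpi are part of the villus marker score. That score therefore carries genotype differences itself, and a fit with it as a covariate cannot tell them from villus content. Of 12 goblet cell markers 7 were higher (median 0.80), as were 4 of 10 T cell markers, 2 of 10 Paneth cell markers and 1 of 12 crypt stem and cycling markers. Of 7 smooth muscle markers 1 was lower (Mylk, −0.56). None of the tested markers of stroma and endothelium (7), B cells (2), macrophages and dendritic cells (8) or hepatocytes (3) was called by limma, with 1 B cell marker and no other at an unadjusted p under 0.05. Summed goblet markers lay between 33809 and 68217 TPM in ERBB3-dIE mice, and between 19035 and 31056 TPM in Erbb3-FF mice. Summed villus markers lay between 13470 and 60062 TPM in ERBB3-dIE mice, and between 23796 and 78286 TPM in Erbb3-FF mice. With the villus marker score as a covariate the log2 differences were −2.53 for Gsta1, −2.39 for Gsta5, −1.52 for Gsta4, −0.28 for Sult2b1 and −0.15 for Ces2e. No member was called in that fit, in which 20 genes in all were higher and 7 lower.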

How the data were processed

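RNA of scraped ileal mucosa from 12 mice was made into strand-marking Illumina mRNA libraries and read single-end, per the labels' protocols. The authors used CASAVA, Salmon 1.10.0, DESeq2 and the build GRCm39, per the submitters' processing notes; annotation release and filters are not given there. The authors deposited TPM per gene and library, each library summing to the same total, so depth is unknown and its precision cannot be given. The deposited columns of the authors' own test are, per the file headers, a mean normalized signal (baseMean), a log2 fold change with its standard error, a test score and a p-value with its adjusted p-value.

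TPM are not counts, so limma 3.58.1 (lmFit and eBayes with a trend, R 4.3.3) was run on log2(TPM + 0.5) over 12605 genes at 1 TPM in at least 6 libraries, with litter and genotype as terms and Benjamini-Hochberg adjustment. Log2 differences understate changes of low genes. The labels call each library a separate mouse. A second model held the interaction. Shared 75-base windows were counted in GENCODE M21 transcripts, and promoters are from RefSeq (GRCm38.p6). Promoters were found for 51 members.

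Members and gene lists were chosen with earlier results of these data known. Named are all members called for genotype or litter, the most abundant and the smallest-p member of each family, genes beside the filter limit, other members as description, and in the other lists up to 5 called genes (3 for cell markers) and the most abundant gene; a few known genes outside this rule are named as such. Mouse numbers did not pair the genotypes (correlations of same-numbered mice 0.0739 to 0.357). Alternatives covered pseudocount, filter, scaling, variance, litter term, covariates, each litter, each library and the authors' test; 3 fits without groups of libraries were added after seeing the data. Figures were drawn with matplotlib 3.10.9.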

Additional observations from a re-analysis of the deposited data

Results flagged for a closer look

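In each genotype of 6 mice, the highest and the lowest library of every member were compared with the nearest other, and a library was picked out where that gap, as a share of the group's range, passed Dixon's 95% critical value for 6 values. Of 118 groups 5 met this, and chance picks about 1 in 20 groups. All 5 were in ERBB3-dIE mice. Gsta4 was at 30.75 TPM in ERBB3-dIE mouse 5, where the nearest mouse had 17.7 TPM. Ces2b, a carboxylesterase, was at 7.225 TPM in the same mouse, where the nearest had 1.98 TPM. Ugt2b5 was lowest in ERBB3-dIE mouse 4, at 12.03 TPM, with 18.1 TPM in the nearest. Cyp2w1 was at 0.310 TPM in ERBB3-dIE mouse 2, with 0.891 TPM in the nearest, and Gstm7 at 0.936 TPM in ERBB3-dIE mouse 1, with 1.98 TPM in the nearest. Without ERBB3-dIE mouse 5 the call of Gsta4 held.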

How the results depend on the processing

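No member that was called for genotype reversed its direction under any alternative run. Against 5 lower members, 3 were lower with no filter, 2 without the litter term, 0 in litter A alone, 0 in litter B alone, 0 with the B cell markers as a covariate (of which 2 genes were tested), and 0 with the villus markers as a covariate. Over all genes, 467 were lower with all mice, and in the same order 245, 156, 2, 9, 38 and 7. More members were lower after rescaling without mitochondrial and ribosomal genes (7, adding Cyp2d22 and Cyp3a13), under quantile normalisation (6, adding Cyp3a13) and with library weights (6, adding Cyp3a13), where 823, 587 and 736 genes in all were. At 5 TPM in at least 6 libraries, 4 of 47 members tested were lower, Gsta5 not being tested there. Fits chosen after seeing the data gave 2 without the 2 libraries rich in smooth muscle genes, 5 without the 2 rich in ribosomal sequence and 0 without the 3 rich in B cell genes, beside 65, 368 and 21 lower genes in all. The last of these fits keeps no Erbb3-FF mouse of litter B, so it compares the genotypes within litter A only. With mouse number as a replicate block in place of litter 8 members were lower (Cyp2d22, Cyp3a11 and Cyp3a13 besides the 5), although the numbers do not pair the mice. Against 0 higher members, 1 (Ces1e) was higher under median-of-ratios scaling, under quantile normalisation and in the authors' deposited test. Leaving out 1 library gave 3 to 6 lower members, and 2 to 26 members between litters in place of 10. Gsta4, Gsta5 and Sult2b1 were called in all 12 of these fits, Gsta1 in 10 (highest adjusted p 0.0512) and Ces2e in 8 (highest 0.0626). The cause of these changes was not tested, except that the litter fits and those without several libraries hold fewer samples. The planned permutation test adjusted over all genes was not run. Depth cannot be read from TPM, so low members such as Gsta5 carry an unknown counting error.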
